A study of Mus musculus with 9 samples.

Results

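Cpt1a and 9 other genes of mitochondrial fatty acid oxidation were read across 9 RNA-seq libraries of activated mouse CD4+ T cells. They were taken by name as 3 genes of the carnitine shuttle (Cpt1a, Slc25a20 and Cpt2) and 7 enzymes of beta-oxidation (Acadvl, Acadl, Acadm, Hadha, Hadhb, Hadh and Acaa2). All 10 were found among the 55536 genes of the count table, and all 10 were among the 14684 genes with enough reads to be tested. CD4+ T cells were isolated from the spleens of wild-type male mice aged 6 to 12 weeks. Every culture was stimulated with beads carrying anti-CD3 and anti-CD28 and with 5 ng/mL IL-2, the T cell growth cytokine, for 18 h. Exosomes, small secreted vesicles, were present during those 18 h at 2e+09 particles per mL in 6 cultures. In 3 of them, named EKO_exo here, the exosomes came from BMDM of ApoE-deficient mice, which lack the lipid-carrying apolipoprotein E. In another 3, named WT_exo, they came from BMDM of wild-type mice, and the last 3 cultures received PBS. BMDM commonly stands for macrophages grown from bone marrow. The T cells were of wild-type genotype in every group, no unstimulated culture was analysed here, and no label says that the replicates of a group came from separate mice. P-values therefore set differences between groups against the spread between these cultures.

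Mitochondria burn long-chain fatty acids in a shuttle and a cycle. CPT1 at the outer membrane joins the acyl group to carnitine, a translocase carries it inward, CPT2 returns it to coenzyme A, and the cycle then removes acetyl-CoA in 4 enzymatic steps per turn. Malonyl-CoA, the substrate of fatty acid synthesis, inhibits CPT1, so that synthesis and oxidation do not usually run together. In T cells the pathway has been tied to memory and regulatory cells, while freshly activated effector cells lean on glycolysis, and later work with cells lacking Cpt1a questioned how far T cells need long-chain oxidation at all.

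Library totals ran between 25792975 and 32971791 counts. The EKO_exo libraries held 19038 to 19518 genes with a count, against 19989 to 20568 in the WT_exo and PBS libraries. EKO_exo replicates 3, 1 and 2 each stood apart from the other 8 libraries on a principal component of log2 CPM (read counts scaled to library size), at 61.6, -54.0 and -36.4 on the first 3 components. The third component also separated PBS, at 18.2 to 25.3, from WT_exo, at -12.9 to -10.9. Between them lay EKO_exo replicates 1 and 3, at 5.4 and 2.9. The summed level of 8 T cell markers was 3233 to 3309 CPM in EKO_exo, 3082 to 3175 CPM in WT_exo and 3100 to 3177 CPM in PBS. Of 11 macrophage and monocyte markers 4 were tested, and C1qa was at 0 in every library. Of the 4, 1 was called higher in EKO_exo than in PBS by edgeR but not by DESeq2. This was Csf1r, which averaged 2.28 CPM in EKO_exo and 0.870 CPM in PBS (edgeR adjusted p = 0.0476). The summed level of the 11 was 24.6 to 29.6 CPM in EKO_exo, 22.5 to 29.95 CPM in WT_exo and 19.2 to 29.5 CPM in PBS. The 6 B cell markers summed to 126 to 141 CPM in EKO_exo, 92.0 to 109 CPM in WT_exo and 104 to 117 CPM in PBS. Nearly all of this was Igkc, which averaged 127, 94.6 and 105 CPM in EKO_exo, WT_exo and PBS, while each other marker averaged at most 1.69 CPM. In EKO_exo against PBS 3 of the 6 had a positive and 3 a negative log2 fold change. Called higher in EKO_exo than in PBS were 2 of the 8 T cell markers (Cd3e and Cd5) and 1 of the 6 B cell markers, the immunoglobulin gene Igkc, which was also called higher in EKO_exo than in WT_exo. Of 4 neutrophil markers 1 was tested, the calcium-binding protein gene S100a9, with 0, 0 and 18 counts in EKO_exo, 0 counts in each WT_exo library, and 1, 18 and 21 counts in PBS. It was called lower in WT_exo than in PBS by edgeR (adjusted p = 0.0407) but not by DESeq2, and all WT_exo libraries lay below all PBS libraries. The 4 summed to 0 to 0.631 CPM in EKO_exo, 0 to 0.137 CPM in WT_exo and 0.0704 to 1.02 CPM in PBS. Haemoglobin genes Hbb-bs and Hba-a1 were at 0 in every library. The part of these markers in the results below was not tested.

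With each kind of exosome 1 of the 10 genes changed against PBS. Hadh, which encodes a dehydrogenase of the cycle, fell by 0.35 on the log2 scale in EKO_exo and by 0.28 in WT_exo. Cpt1a and the other 8 genes did not pass the test in either comparison, and none of the 10 passed it between EKO_exo and WT_exo. Counts of called genes rest on edgeR's quasi-likelihood F test with Benjamini-Hochberg adjustment over all 14684 genes, at an adjusted p under 0.05. In EKO_exo against PBS this test called 5.08% of all tested genes, 2.21% higher and 2.87% lower. For WT_exo against PBS it called 4.97%, of which 1.83% of all tested genes were higher and 3.14% lower. With 10 genes, 1 call is thus not far from the share among all genes. The comparison of EKO_exo with WT_exo called 0.0341% of all genes, 0.0272% higher and 0.00681% lower. There edgeR called 0 of the 10 genes, 1 had an unadjusted p under 0.05, and DESeq2 also called 0. Of all 14684 genes 1039 had such an unadjusted p in that comparison, and DESeq2 called 32. Because the comparisons with PBS share the same 3 PBS libraries, their values are given side by side and are not independent of each other.

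**Figure D1:**
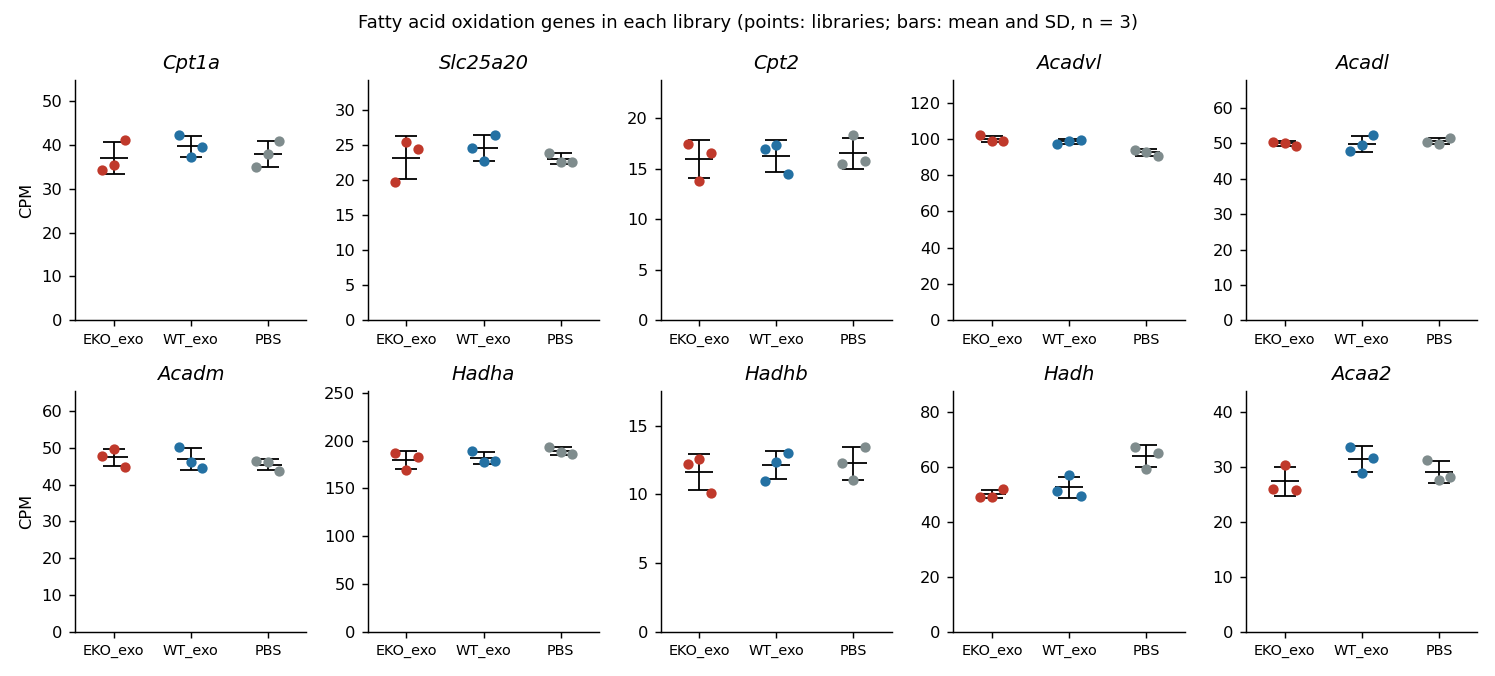
CPM of each of the 10 genes (vertical axes, from 0) in the EKO_exo, WT_exo and PBS libraries. Points are libraries and bars the mean and SD of 3; the Hadh points of both exosome groups lie at 49.1 to 56.8 CPM, below all PBS points, while those of Cpt1a overlap between groups.

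Levels were first set side by side per length, as CPM per kilobase of the principal transcript. Hadha and Acadvl stood at the top, with means over the 9 libraries of 45.8 and 44.8 CPM per kb, and their ranges overlapped. Hadh followed at 31.0, Acadl at 26.2, Acadm at 22.8 and Acaa2 at 19.3 CPM per kb. The ranges of Acadm and Acaa2 overlapped over the 9 libraries, and those of Hadh and Acadl lay 27.4 to 37.6 and 24.98 to 27.3 CPM per kb. The shuttle genes were lower, Slc25a20 at 13.2, Cpt1a at 8.84 and Cpt2 at 6.84 CPM per kb, and Hadhb was lowest at 5.86, overlapping Cpt2. The order depends on the length used. With the union of all annotated exons in its place, Acadvl led at 36.1 CPM per kb, followed by Acadl at 25.0, Hadha at 21.1, Acaa2 at 19.3, Acadm at 11.9 and Hadh at 11.1 CPM per kb. Cpt2 at 6.79 then stood above Cpt1a at 4.99 and Slc25a20 at 4.87, and Hadhb was again lowest at 1.82 CPM per kb.

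**Figure D2:**
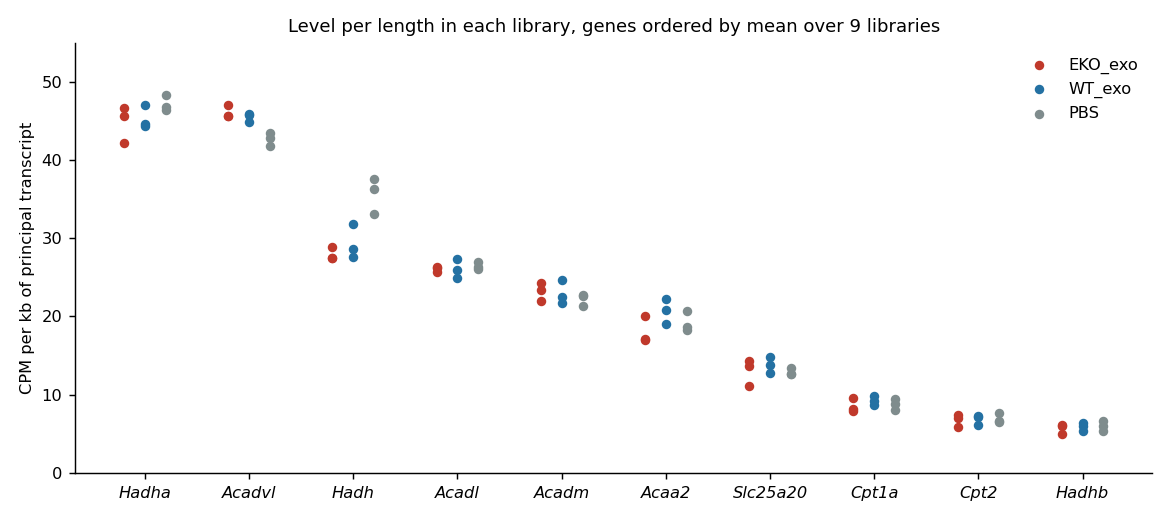
Level per length (CPM per kb of principal transcript, vertical axis) of each gene in each of the 9 libraries, genes ordered by their mean. Hadha and Acadvl lie above 41 CPM per kb in every library, and Cpt1a, Cpt2 and Hadhb below 10.

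Cpt1a (ENSMUSG00000024900, GRCm38 chromosome 19, 3322334 to 3385733, plus strand) encodes the liver-type carnitine palmitoyltransferase of the outer membrane, the entry point that malonyl-CoA inhibits. Its level was 34.2, 35.4 and 41.1 CPM in EKO_exo, 42.2, 37.3 and 39.4 CPM in WT_exo, and 35.0, 37.9 and 40.9 CPM in PBS. The 3 groups overlapped, and each had a library near 40 CPM. Means were 36.9 ± 3.68 CPM in EKO_exo, 39.6 ± 2.43 CPM in WT_exo and 37.9 ± 2.99 CPM in PBS (SD, n = 3 each). The log2 fold change was -0.038 ± 0.086 (SE) in EKO_exo against PBS, with a 95% interval of -0.22 to 0.14 (edgeR adjusted p = 0.892). It was 0.064 ± 0.086 in WT_exo against PBS, with an interval of -0.11 to 0.24 (edgeR adjusted p = 0.825). EKO_exo against WT_exo gave -0.10 ± 0.086, with an interval of -0.28 to 0.074 (edgeR adjusted p = 0.869). These intervals leave room for a change of either sign, and none reaches 0.30 on the log2 scale. Its sister forms were scarce: the muscle form Cpt1b averaged 0.608 CPM in EKO_exo, 0.285 CPM in WT_exo and 0.306 CPM in PBS, and the brain form Cpt1c averaged 1.58, 1.70 and 1.97 CPM in EKO_exo, WT_exo and PBS. For Cpt1b the EKO_exo mean came largely from replicate 2, which had 1.55 CPM against 0.143 and 0.133 CPM in replicates 1 and 3.

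Slc25a20, the carnitine-acylcarnitine translocase of the inner membrane, had 19.7, 25.4 and 24.4 CPM in EKO_exo, 24.5, 22.7 and 26.3 CPM in WT_exo, and 23.9, 22.6 and 22.5 CPM in PBS. The EKO_exo libraries spanned the widest range, with replicate 1 lowest of all 9. Its log2 fold change was 0.0100 ± 0.104 (SE) in EKO_exo against PBS and 0.094 ± 0.103 in WT_exo against PBS (edgeR adjusted p = 0.977 and 0.765). Cpt2, which returns the acyl group to coenzyme A in the matrix, had 17.4, 13.8 and 16.5 CPM in EKO_exo, 17.0, 17.3 and 14.4 CPM in WT_exo, and 15.4, 18.3 and 15.8 CPM in PBS. Its groups overlapped too, with log2 fold changes of -0.050 ± 0.121 in EKO_exo against PBS and -0.024 ± 0.120 in WT_exo against PBS (edgeR adjusted p = 0.897 and 0.966). Between EKO_exo and WT_exo, Slc25a20 was at -0.084 ± 0.103 and Cpt2 at -0.026 ± 0.121 (edgeR adjusted p = 0.919 and 0.982). Cpt1a over Cpt2 per length was 1.28 ± 0.178 in EKO_exo, 1.35 ± 0.159 in WT_exo and 1.27 ± 0.145 in PBS (SD, n = 3 each), so the ratio of the outer to the inner transferase mRNA differed between groups by less than its spread.

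The acyl-CoA dehydrogenases take the first step of each turn and differ in the chain length they prefer. Acadvl, the very long-chain enzyme bound to the inner membrane, had 102, 99.0 and 99.0 CPM in EKO_exo, 97.2, 99.1 and 99.6 CPM in WT_exo, and 94.1, 92.8 and 90.7 CPM in PBS. All 6 exosome libraries lay above all 3 PBS libraries. The difference was small and did not pass the test: log2 0.11 ± 0.049 (SE) in EKO_exo against PBS, with a 95% interval of 0.010 to 0.21 (edgeR adjusted p = 0.23). In WT_exo against PBS it was 0.092 ± 0.049, with an interval of -0.0092 to 0.19 (edgeR adjusted p = 0.384). Groups that did not overlap were common among all tested genes, at 20.5% in EKO_exo against PBS, 22.2% in WT_exo against PBS and 11.8% in EKO_exo against WT_exo. Of the 10 genes, Hadh and Acadvl did not overlap in either comparison with PBS, which is 2 of 10, and 0 of 10 were apart between EKO_exo and WT_exo.

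Acadvl also lies tail to tail with a neighbour. Its gene (ENSMUSG00000018574, GRCm38 chromosome 11, 70010183 to 70015411, minus strand) shares 1151 of its 2686 exon bases with Dvl2, a Wnt signalling gene on the plus strand. Whether reads were assigned by strand is not given in the sources used here, so reads of that overlap may have gone to either gene or to neither. Dvl2 had 55.9, 46.8 and 43.6 CPM in EKO_exo, 44.1, 45.1 and 46.9 CPM in WT_exo, and 47.6, 51.9 and 45.5 CPM in PBS. Its groups overlapped, with a log2 fold change of 0.012 ± 0.082 (SE) in EKO_exo against PBS and -0.090 ± 0.082 in WT_exo against PBS (edgeR adjusted p = 0.967 and 0.69).

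Acadl and Acadm, the long-chain and medium-chain dehydrogenases, overlapped in all groups and did not pass the test. Acadl had 50.5, 50.2 and 49.3 CPM in EKO_exo, 47.9, 49.6 and 52.3 CPM in WT_exo, and 50.5, 49.9 and 51.6 CPM in PBS. Its log2 fold change was -0.019 ± 0.067 (SE) in EKO_exo against PBS and -0.021 ± 0.067 in WT_exo against PBS, with 95% intervals of -0.16 to 0.12 in both (edgeR adjusted p = 0.931 and 0.94). For Acadm, libraries held 47.8, 49.6 and 44.9 CPM in EKO_exo, 50.4, 46.1 and 44.4 CPM in WT_exo, and 46.5, 46.2 and 43.7 CPM in PBS. Its groups overlapped, at 0.062 ± 0.073 in EKO_exo against PBS and 0.047 ± 0.073 in WT_exo against PBS (edgeR adjusted p = 0.751 and 0.854). Between EKO_exo and WT_exo the 3 dehydrogenases differed by 0.0016 to 0.020 on the log2 scale (edgeR adjusted p = 0.968 to 0.999).

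Hadha and Hadhb encode the alpha and beta subunits of the mitochondrial trifunctional protein, which carries out the remaining steps for long chains. Hadha had 187, 169 and 183 CPM in EKO_exo, 189, 178 and 179 CPM in WT_exo, and 194, 188 and 186 CPM in PBS. The PBS libraries were high, though 1 library of each exosome group reached into their range, and the log2 fold change was -0.074 ± 0.044 (SE) in EKO_exo against PBS and -0.058 ± 0.044 in WT_exo against PBS (edgeR adjusted p = 0.423 and 0.593). Hadhb had 12.2, 12.6 and 10.1 CPM in EKO_exo, 10.996, 12.3 and 13.0 CPM in WT_exo, and 12.3, 11.02 and 13.5 CPM in PBS. Its groups overlapped, at -0.077 ± 0.134 in EKO_exo against PBS and -0.016 ± 0.133 in WT_exo against PBS (edgeR adjusted p = 0.845 and 0.98). EKO_exo against WT_exo gave -0.015 ± 0.044 for Hadha and -0.062 ± 0.133 for Hadhb (edgeR adjusted p = 0.971 and 0.961).

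Although the subunits assemble in equal numbers, per length the Hadha level was 7.99 ± 1.20 times that of Hadhb in EKO_exo, 7.71 ± 0.92 times in WT_exo and 7.94 ± 0.83 times in PBS (SD, n = 3 each). The Hadhb coding sequence has near-identical copies elsewhere in the genome. Of the 1999 stretches of 50 bases in its principal transcript, 1247 or 62.4% also occur in the processed pseudogenes Gm13910 and Gm9108, a share beyond that of any other member. The coding sequence of Hadhb, positions 120 to 1547 of the transcript, matched Gm13910 (GRCm38 chromosome 2, 108948806 to 108950233) at 1425 of 1428 bases, 99.79%. The pair is shown around position 862, counted from the transcript's 5′ end, where the substitution is G862A and the capitals mark the differing base; the bases after it, positions 863 to 1547, are an exact match of 685 bases.
Hadhb: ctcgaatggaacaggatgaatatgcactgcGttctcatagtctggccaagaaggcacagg
Gm13910: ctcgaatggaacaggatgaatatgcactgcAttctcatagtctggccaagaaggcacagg
A read from inside such a run fits both genes equally well. Gm13910 held 2 to 12 counts per library and Gm9108 held 0, against 304 to 429 for Hadhb. How such reads were counted is not given in the sources used here, and the part of this copy in the low Hadhb level was not tested. Acadvl shared 24.02% of its stretches, with Dvl2, Acadm 4.10% and Hadha 0.655%, and the other 6 genes shared 0.

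**Figure D3:**
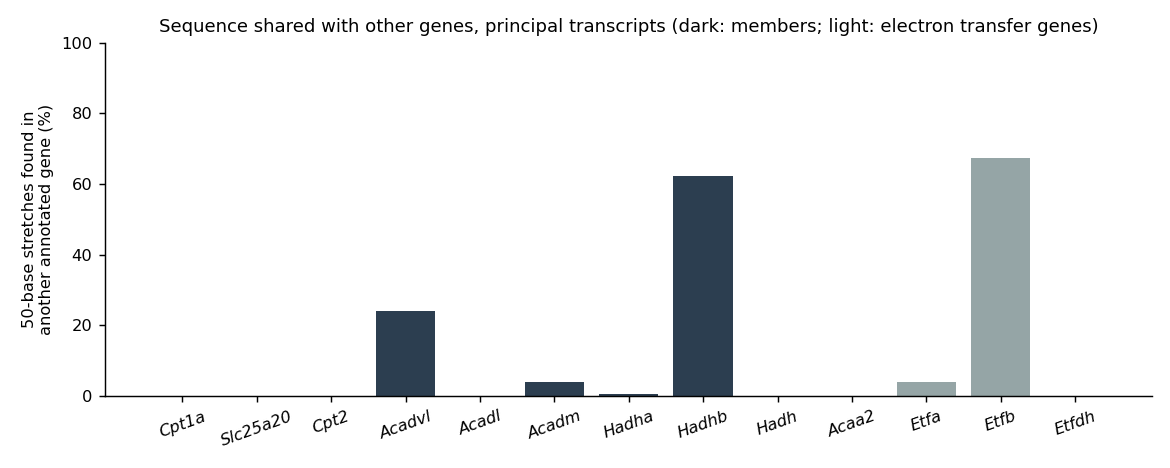
Share of 50-base stretches of each principal transcript (percent, vertical axis) that also occur in a transcript of another annotated gene. Dark bars are the 10 genes and light bars Etfa, Etfb and Etfdh; Hadhb (62.4%) and Etfb (67.3%) stand far above the rest.

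Hadha and Hadhb also start next to each other. Their annotated RefSeq starts lie 273 bases apart on chromosome 5 and face away from each other, so that windows of 250 bases before to 50 after each start share 228 of 300 bases. RefSeq promoter windows (GRCm38.p6) were matched for 9 of the 10 genes, all but Acaa2. The Hadhb window, chr5:30155003-30155302 on the plus strand, is shown because it holds the shared bases. Capitals mark its 4 GC boxes (GGGCGG, either strand). The box at -90 to -85 from the Hadhb start lies within the shared bases and is the only GC box of the Hadha window. The box at -25 to -20 crosses the edge of the shared bases, and those at 10 to 15 and 24 to 29 lie beyond it.
Hadhb window: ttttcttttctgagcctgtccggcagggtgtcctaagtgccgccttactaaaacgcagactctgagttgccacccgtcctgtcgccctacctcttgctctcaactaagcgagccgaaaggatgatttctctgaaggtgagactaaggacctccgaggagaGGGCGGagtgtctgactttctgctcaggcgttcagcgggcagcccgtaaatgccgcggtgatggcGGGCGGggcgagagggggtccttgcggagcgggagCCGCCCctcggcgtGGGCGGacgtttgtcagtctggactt
GC boxes were found in 7 of the 9 windows, all but Acadvl and Acadm, and in 35.66% of 32851 RefSeq promoter windows of the same length. The GC box of Hadha is also a box of Hadhb, so that site is counted in both windows. The nuclear receptor core motif AGGTCA was found in Cpt1a, Acadvl and Acadm, and in 16.26% of all windows. The longer ERR element TNAAGGTCA, which contains that core motif, and the E box CACGTG were found in none of the 9 windows, and in 1.28% and 7.15% of all windows. All motifs were searched on both strands.

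Hadh (ENSMUSG00000027984, GRCm38 chromosome 3, 131233419 to 131272101, minus strand) encodes the soluble 3-hydroxyacyl-CoA dehydrogenase of medium and short chains, and in pancreatic islets its protein also restrains glutamate dehydrogenase. Its level was 49.1, 49.2 and 51.7 CPM in EKO_exo, 51.2, 56.8 and 49.5 CPM in WT_exo, and 67.3, 59.3 and 65.0 CPM in PBS. All 6 exosome libraries lay below all 3 PBS libraries. Means were 49.998 ± 1.51 CPM in EKO_exo, 52.5 ± 3.86 CPM in WT_exo and 63.9 ± 4.13 CPM in PBS (SD, n = 3 each). Hadh fell in EKO_exo against PBS, with a log2 fold change of -0.35 ± 0.070 (SE), a 95% interval of -0.50 to -0.21 and a fold of 0.783 (edgeR adjusted p = 0.00204). It also fell in WT_exo against PBS, at -0.28 ± 0.070, with an interval of -0.43 to -0.14 and a fold of 0.822 (edgeR adjusted p = 0.0136). EKO_exo against WT_exo gave -0.070 ± 0.071, with an interval of -0.21 to 0.075 (edgeR adjusted p = 0.901). In RNA from whole cultures, less of this mRNA per cell and fewer cells that carry it cannot be told apart. Relative to Hadha per length, Hadh was at 0.625 ± 0.0325 in EKO_exo, 0.649 ± 0.0596 in WT_exo and 0.757 ± 0.0422 in PBS, with WT_exo reaching into the PBS range.

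The fall in EKO_exo kept its call under all 17 alternatives, including the removal of any library, at log2 fold changes of -0.40 to -0.31 and edgeR or DESeq2 adjusted p of 4.85e-05 to 0.0417. Without EKO_exo replicates 1 and 3, it was -0.38 (edgeR adjusted p = 0.0417). The fall in WT_exo did not: leaving out PBS replicate 1 gave -0.24 and leaving out PBS replicate 3 gave -0.27 (edgeR adjusted p = 0.116 and 0.0544). Without WT_exo replicate 1 it was -0.27, and without WT_exo replicate 3 it was -0.24 (edgeR adjusted p = 0.0823 and 0.111). The summed level of the CD8 T cell markers Cd8a and Cd8b1 was 9.57 to 10.4 CPM in EKO_exo, 8.31 to 10.2 CPM in WT_exo and 11.2 to 12.3 CPM in PBS. Nearly all of it was Cd8b1, which averaged 9.52 CPM in EKO_exo, 8.58 CPM in WT_exo and 11.1 CPM in PBS. Cd8a was scarce, at 0.465, 0.600 and 0.596 CPM in EKO_exo, WT_exo and PBS, and its log2 fold change in WT_exo against PBS was 0.0034. Neither marker passed the test, and the part of these markers in the fall of Hadh was not tested.

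The Hadh promoter window, chr3:131272052-131272351 on the minus strand, is shown as that of the gene that changed. Capitals mark 4 GC boxes and, near the 5′ end, a CCAAT box, which is found in 37.41% of all windows and among the 9 genes also in Cpt1a.
Hadh window: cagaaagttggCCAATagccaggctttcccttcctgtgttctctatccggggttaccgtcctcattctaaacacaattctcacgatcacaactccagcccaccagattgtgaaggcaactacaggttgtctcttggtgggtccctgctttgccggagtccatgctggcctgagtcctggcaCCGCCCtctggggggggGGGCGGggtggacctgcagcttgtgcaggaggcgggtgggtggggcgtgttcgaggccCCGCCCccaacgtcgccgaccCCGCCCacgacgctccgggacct
These matches describe letters in the window and were not tied to any measurement of binding.

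Acaa2, the thiolase that releases acetyl-CoA from medium-length chains, had 26.01, 30.4 and 25.8 CPM in EKO_exo, 33.7, 28.9 and 31.6 CPM in WT_exo, and 31.3, 27.6 and 28.2 CPM in PBS. The groups overlapped in every comparison. It was the member with the lowest unadjusted p between EKO_exo and WT_exo, at -0.20 ± 0.094 (SE) on the log2 scale, with a 95% interval of -0.39 to -0.0078 (edgeR adjusted p = 0.683), and the only member under 0.05 before adjustment. Against PBS it was at -0.086 ± 0.094 in EKO_exo and 0.11 ± 0.093 in WT_exo (edgeR adjusted p = 0.723 and 0.645).

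**Figure D4:**
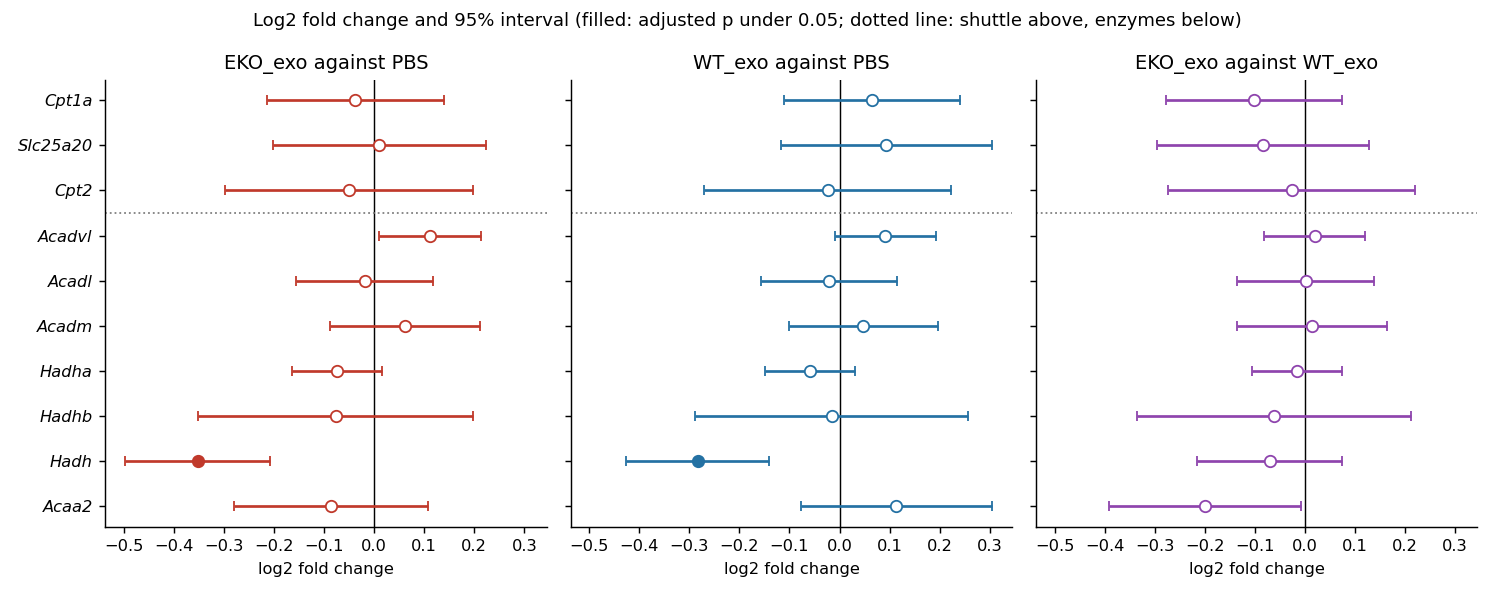
Log2 fold change (horizontal axes) of each gene with its 95% interval in EKO_exo against PBS, WT_exo against PBS and EKO_exo against WT_exo; filled points have an edgeR adjusted p under 0.05, and the dotted line separates shuttle from enzymes. Hadh is filled at -0.35 and -0.28, and all other intervals but those of Acadvl in EKO_exo against PBS and Acaa2 in EKO_exo against WT_exo include 0.

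Shuttle and enzymes were set against each other by their medians, with no test. In EKO_exo against PBS the median log2 fold change was -0.038 over the 3 shuttle genes and -0.074 over the 7 enzymes, where all tested genes had a median of 0. For WT_exo against PBS it was 0.064 over the shuttle and -0.016 over the enzymes, against 0.003 over all tested genes. EKO_exo against WT_exo gave -0.084 over the shuttle and -0.015 over the enzymes, against 0.002 over all tested genes. Library by library, relative to the PBS mean, the shuttle median was -0.144, -0.096 and 0.084 in EKO_exo, 0.094, -0.018 and 0.060 in WT_exo, and -0.094, 0.001 and -0.028 in PBS. The same median over the enzymes was -0.004, 0.040 and -0.047 in EKO_exo, -0.005, -0.003 and 0.046 in WT_exo, and 0.033, -0.021 and -0.023 in PBS. The exosome libraries lay on both sides of 0 for either set. Leaving out EKO_exo replicate 1 turned the shuttle median in EKO_exo against PBS to 0.014, and without EKO_exo replicates 1 and 3 the enzyme median became 0.034. The enzyme median in WT_exo against PBS became 0.017 without PBS replicate 3 and 0.009 without WT_exo replicate 1, and in EKO_exo against WT_exo it became 0.011 without EKO_exo replicate 3 and 0.005 without EKO_exo replicates 1 and 3. In the shuttle edgeR called 0 of 3 genes in each comparison, with 0 at an unadjusted p under 0.05 and 0 by DESeq2.

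Genes whose pattern over the 9 libraries was most like a member were named by the root mean square difference of centred log2 CPM, among 9214 genes of at least 5 CPM. For Cpt1a these were Ost4 (0.038), Dennd4a (0.042), Zfp948 (0.049), Slc35b1 (0.050) and Rab23 (0.051), where the median over all candidates was 0.141 and the SD of Cpt1a itself 0.111. For Hadh they were Enkd1 (0.051), Mipep (0.058), Serpinb9 (0.060), Gys1 (0.064) and Mad2l1 (0.066), with a median of 0.194 over all candidates and an SD of 0.177 for Hadh itself. These 5 genes averaged lower in both exosome groups than in PBS, with log2 fold changes of -0.44 to -0.31 in EKO_exo and -0.37 to -0.22 in WT_exo, as their selection on likeness to Hadh requires. For Cpt1a as for Hadh, the genes named are the closest of all candidates, so their place below the median is fixed by the selection. Cpt1a itself did not pass the test in any comparison.

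Around the 10 genes, 9 lists of related genes held 98 genes, of which 81 were tested. In EKO_exo against PBS 2 of the 81 rose and 1 fell, 3.70% together, with a median log2 fold change of 0.012. Of the same 81, 1 rose and 0 fell in WT_exo against PBS, 1.23%, with a median of -0.031. Both shares were below those over all tested genes, 5.08% in EKO_exo and 4.97% in WT_exo against PBS. EKO_exo against WT_exo had 0 calls by edgeR, 1 gene at an unadjusted p under 0.05 (Ucp2) and 0 calls by DESeq2, with a median of 0.016. The list counts below stand beside those over all 14684 tested genes. In EKO_exo against PBS 2517 of these had an unadjusted p under 0.05, and DESeq2 called 1097. Those counts were 2317 and 986 in WT_exo against PBS, and 1039 and 32 in EKO_exo against WT_exo.

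**Figure D5:**
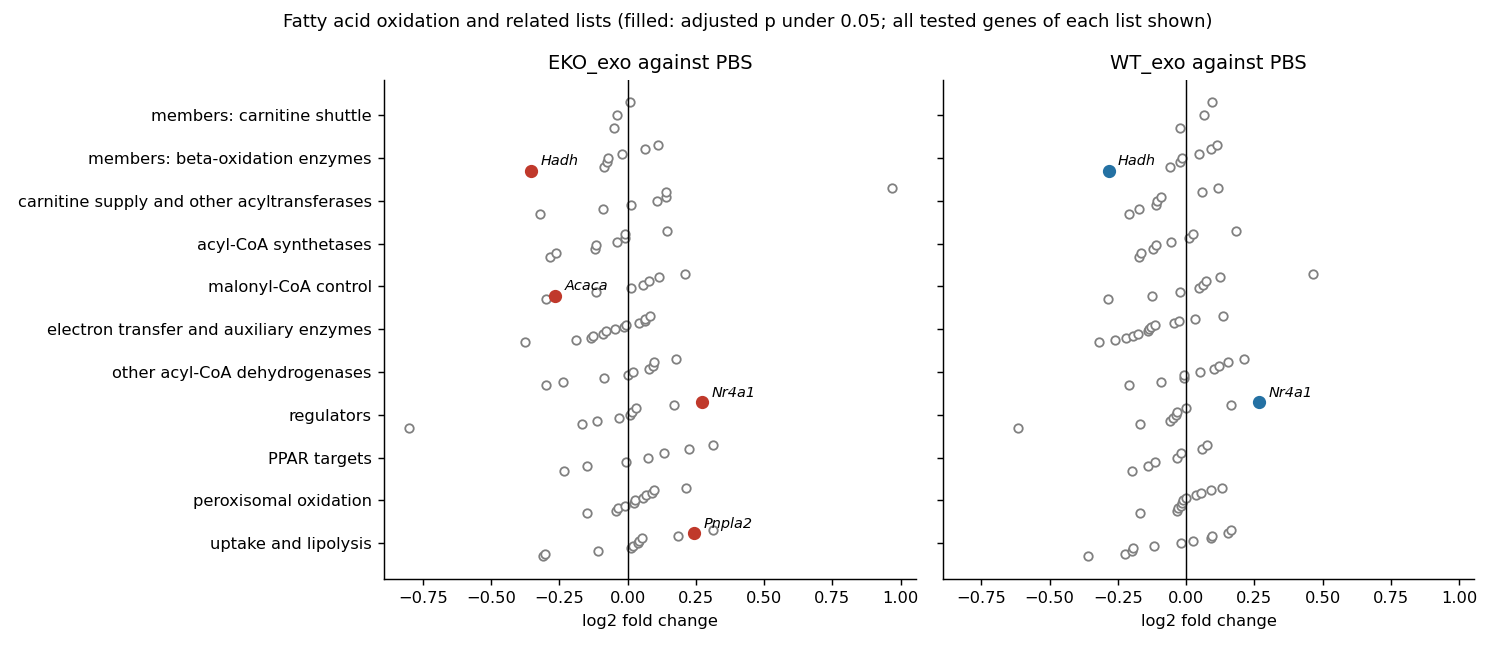
Log2 fold change (horizontal axes) of every tested gene of the 2 sets of members and the 9 related lists, in EKO_exo against PBS (left) and WT_exo against PBS (right); filled points have an edgeR adjusted p under 0.05. Filled are Hadh and Nr4a1 in both panels, and Acaca and Pnpla2 in EKO_exo against PBS.

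Of 8 tested genes that set the malonyl-CoA level, the carboxylases, the decarboxylase Mlycd and subunits of AMP-activated kinase, 1 fell in EKO_exo against PBS. This was Acaca, the carboxylase that makes malonyl-CoA for synthesis, with 53.3, 63.2 and 57.8 CPM in EKO_exo, 61.9, 67.3 and 62.8 CPM in WT_exo, and 75.1, 69.2 and 65.1 CPM in PBS. EKO_exo lay below PBS in every library and WT_exo overlapped it. The log2 fold change in EKO_exo against PBS was -0.26 ± 0.070 (SE, edgeR adjusted p = 0.0227). Its call was lost without EKO_exo replicate 1 (-0.21, adjusted p = 0.123), EKO_exo replicate 3 (-0.26, 0.0518), PBS replicate 1 (-0.21, 0.183) or PBS replicate 2 (-0.27, 0.0815), and without EKO_exo replicates 1 and 3 it was -0.14 (0.571). Mlycd, which breaks malonyl-CoA down, was the other gene of the 8 at an unadjusted p under 0.05 in EKO_exo against PBS, at -0.30 ± 0.136 (SE, edgeR adjusted p = 0.247), and its groups overlapped there. In WT_exo against PBS edgeR called 0 of the 8, with 1 at an unadjusted p under 0.05 and 0 by DESeq2; that gene was again Mlycd, at -0.28 ± 0.136 (edgeR adjusted p = 0.3), with WT_exo below PBS in every library. Acacb, the carboxylase at the outer membrane, averaged 1.19 CPM in EKO_exo, 1.79 CPM in WT_exo and 1.29 CPM in PBS.

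Among 11 tested genes of fatty acid uptake and lipolysis, 1 rose in EKO_exo against PBS. Pnpla2, the triglyceride lipase of lipid droplets, had 117, 106 and 116 CPM in EKO_exo, 110, 106 and 106 CPM in WT_exo, and 86.4, 95.2 and 105 CPM in PBS. All exosome libraries lay above all PBS libraries, but closely: the lowest, of WT_exo, was at 105.7 CPM and the highest of PBS at 104.9 CPM. The log2 fold change was 0.24 ± 0.059 (SE) in EKO_exo against PBS and 0.16 ± 0.059 in WT_exo against PBS (edgeR adjusted p = 0.0124 and 0.123). The call was lost without EKO_exo replicate 1 (0.22, adjusted p = 0.0535), PBS replicate 1 (0.18, 0.138) or PBS replicate 2 (0.24, 0.0657), and without EKO_exo replicates 1 and 3 it was 0.15 (0.462). Of the 11 genes 3 had an unadjusted p under 0.05 in EKO_exo against PBS, and DESeq2 called 2. Among these 3, Fabp5, a fatty acid-binding protein of the cytosol, had the opposite sign. It had 27.5, 24.8 and 24.8 CPM in EKO_exo, 27.6, 32.8 and 27.4 CPM in WT_exo, and 34.4, 31.6 and 29.1 CPM in PBS. EKO_exo lay below PBS in every library and WT_exo overlapped it, with log2 fold changes of -0.30 ± 0.095 (SE) in EKO_exo against PBS and -0.12 ± 0.094 in WT_exo against PBS (edgeR adjusted p = 0.0633 and 0.641). In WT_exo against PBS edgeR called 0 of the 11, with 1 at an unadjusted p under 0.05 and 0 by DESeq2.

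Of 9 tested regulators, receptors and coactivators that control oxidative genes, 1 rose in each comparison with PBS. Nr4a1, an orphan nuclear receptor induced by T cell receptor signalling, had 258, 267 and 282 CPM in EKO_exo, 265, 275 and 264 CPM in WT_exo, and 223, 233 and 210.4 CPM in PBS. The log2 fold change was 0.27 ± 0.042 (SE) in EKO_exo against PBS and 0.27 ± 0.042 in WT_exo against PBS (edgeR adjusted p = 0.000121 and 0.00013), and both calls were kept under all 17 alternatives. At an unadjusted p under 0.05 were 2 of the 9 in each comparison with PBS, and DESeq2 called 1 in EKO_exo and 2 in WT_exo. Beside Nr4a1, that p was reached by Rxra in EKO_exo (-0.17 ± 0.068, edgeR adjusted p = 0.169) and by Tfam in WT_exo (-0.17 ± 0.057, 0.0879). Tfam averaged 74.5 CPM in EKO_exo, 71.6 CPM in WT_exo and 80.6 CPM in PBS, with all exosome libraries below PBS. The receptor PPAR-alpha and the coactivator PGC-1alpha, encoded by Ppara and Ppargc1a, were under the low-count filter, while Ppard averaged 53.4 CPM in EKO_exo, 53.1 CPM in WT_exo and 54.6 CPM in PBS. Of 7 tested PPAR targets edgeR called 0 in EKO_exo against PBS, with 0 at an unadjusted p under 0.05 and 0 by DESeq2. In WT_exo against PBS it called 0, with 1 unadjusted and 1 by DESeq2: Ucp2, a mitochondrial carrier, averaged 484 CPM in EKO_exo, 449 CPM in WT_exo and 486 CPM in PBS, at -0.11 ± 0.036 in WT_exo against PBS (edgeR adjusted p = 0.0709).

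The remaining 5 lists held no call by edgeR. Acyl-CoA synthetases, which activate fatty acids, had 3 of 8 tested at an unadjusted p under 0.05 and 1 by DESeq2 in EKO_exo against PBS, and 1 and 1 in WT_exo against PBS. Acsl5 averaged 219 CPM in EKO_exo, 219 CPM in WT_exo and 238 CPM in PBS, with all exosome libraries below PBS, at -0.12 ± 0.039 (SE) in each comparison with PBS (edgeR adjusted p = 0.0691 in EKO_exo and 0.073 in WT_exo). Electron transfer and auxiliary enzymes had 1 of 13 at an unadjusted p under 0.05 in EKO_exo and 2 in WT_exo against PBS, with 0 by DESeq2 in each. Acat1, the mitochondrial acetoacetyl-CoA thiolase, averaged 82.4 CPM in EKO_exo, 82.1 CPM in WT_exo and 94.0 CPM in PBS, at -0.19 ± 0.064 and -0.20 ± 0.064 in EKO_exo and WT_exo against PBS (edgeR adjusted p = 0.0881 and 0.0798). In that list Etfb, a subunit of the electron transfer flavoprotein, averaged 1.35 CPM in EKO_exo, 1.09 CPM in WT_exo and 1.36 CPM in PBS, while its partner Etfa averaged 49.9, 48.1 and 52.7 CPM in EKO_exo, WT_exo and PBS. Of the Etfb transcript 67.3% of the 50-base stretches recur in Gm45233, an annotated gene over the same locus that held 0 counts in every library. The part of that overlap in the low Etfb level was not tested.

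Carnitine supply and other acyltransferases had 0 of 7 tested genes at an unadjusted p under 0.05 in EKO_exo and 1, Aldh9a1, in WT_exo against PBS, with 0 by DESeq2 in each. Aldh9a1, an aldehyde dehydrogenase of carnitine synthesis, averaged 105 CPM in EKO_exo, 104 CPM in WT_exo and 112 CPM in PBS. Other acyl-CoA dehydrogenases had 1 of 9 at an unadjusted p under 0.05 in EKO_exo against PBS, 0 in WT_exo against PBS, and 0 by DESeq2 in each. That gene was Acads, the short-chain enzyme, which averaged 40.1 CPM in EKO_exo, 38.0 CPM in WT_exo and 35.5 CPM in PBS, at 0.18 ± 0.082 (SE) in EKO_exo against PBS (edgeR adjusted p = 0.26). In WT_exo against PBS the smallest p of that list was that of Acad8, an enzyme of valine breakdown, at 0.21 ± 0.108 (edgeR adjusted p = 0.351). Peroxisomal oxidation had 1 of 11 at an unadjusted p under 0.05 in EKO_exo against PBS, 0 in WT_exo against PBS, and 0 by DESeq2 in each. It was Acaa1a, the peroxisomal thiolase, which averaged 47.0 CPM in EKO_exo, 44.5 CPM in WT_exo and 40.6 CPM in PBS, at 0.21 ± 0.080 in EKO_exo against PBS and 0.13 ± 0.080 in WT_exo against PBS (edgeR adjusted p = 0.137 and 0.462).

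Between EKO_exo and WT_exo the gene with the smallest p was named in the same way for 8 of the 9 lists, and none passed the test. Positive log2 fold changes were those of the carnitine acetyltransferase Crat (0.31 ± 0.165 SE), the synthetase Acsl1 (0.16 ± 0.102), the enoyl-CoA hydratase Echs1 (0.12 ± 0.083) and Ucp2 (0.11 ± 0.036). Negative ones were those of Acaca (-0.14 ± 0.070), Acad12 (-0.45 ± 0.247), the retinoid X receptor Rxra (-0.11 ± 0.067) and Fabp5 (-0.19 ± 0.096). Their edgeR adjusted p ran between 0.512 and 0.824, lowest for Ucp2, whose EKO_exo libraries lay above its WT_exo libraries, while the other 7 genes overlapped.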

How the data were processed

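RNA-seq covered 9 libraries, 3 in each group. The authors deposited raw counts: whole numbers for each gene and library, not normalized. STAR 2.7.5c was the aligner and GRCm38 the build, per the submitters' processing notes. Counting tool, strand setting and annotation: not given in the sources used here. Ensembl identifiers were matched to GENCODE M21 (GRCm38), and 55450 of 55536 had a symbol.

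The tests used edgeR 4.0.16 in R 4.3.3: filterByExpr (minimum count 10, minimum total 15), TMM scaling, 1 model of the 3 groups over all 9 libraries, and the quasi-likelihood F test (6 residual and 21.1 prior degrees of freedom), with Benjamini-Hochberg adjustment over 14684 genes. These genes took 99.92% or more of each library. CPM use library sizes after TMM scaling. Levels per length used the APPRIS principal transcript. Intervals of the log2 fold change are 95% confidence intervals of the difference between groups. Their SE rests on the spread between libraries, moderated over all tested genes. Alternatives were other size factors, other filters, DESeq2 1.42.0, a fit of the groups compared alone, a replicate block and leaving out libraries. The scripts were tested on simulated counts, with changes larger than those of any member. That test does not cover changes of the size seen in the members.

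Chi-square per degree of freedom between libraries of a group ran 5.02 to 5.85 in PBS and WT_exo and 6.59 to 9.08 in EKO_exo. Each library was therefore counted as its own sample. All comparisons, also WT_exo against PBS, used a spread estimated over all 9 libraries. Named were all 10 members, the called genes of each related list (otherwise the gene with the smallest p), and the 5 genes nearest to Cpt1a and to Hadh. Sister forms, genes that share sequence, and Ppara, Ppargc1a, Ppard, Acacb, Etfa and Etfb were named for their role or level after their values were seen. Tfam was named for its unadjusted p. A gene that the rule would name is not reported here. The members and lists were chosen with earlier results of these data known.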

Additional observations from a re-analysis of the deposited data

How the results depend on the processing

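Each result was recomputed under 17 alternatives. Of 34 values of called members 30 kept their call, 4 lost it (Hadh in WT_exo against PBS, given above), and 0 reversed; of members not called 0 gained a call, and 33 values in 15 comparisons changed sign. Against the main 746 calls in EKO_exo against PBS, leaving out 1 library gave 375 to 687 calls, lowest without PBS replicate 2 (375) and PBS replicate 1 (399), and leaving out EKO_exo replicates 1 and 3 gave 249. Against 730 in WT_exo against PBS, leaving out 1 library gave 399 to 870 calls: without PBS replicates 1 or 2 there were 410 and 399, and without WT_exo replicates 1, 2 or 3 there were 441, 430 and 432. For EKO_exo against WT_exo the main count of 5 became 28 with no filter on low counts, 9 with a mean of at least 5 CPM, 32 by DESeq2, 0 without EKO_exo replicates 1 and 3, and 0 to 6 when 1 library was left out (0 without WT_exo replicate 2, and 1 without EKO_exo replicate 2, WT_exo replicate 1 or WT_exo replicate 3). Not all reduced fits called fewer genes. In WT_exo against PBS there were 870 calls without EKO_exo replicate 1 and 806 without EKO_exo replicate 3. Fitting only the 2 groups compared gave 602 calls in EKO_exo against PBS, 1068 in WT_exo against PBS and 7 in EKO_exo against WT_exo. The cause of these shifts was not tested. Same-numbered libraries did not deviate together (r = -0.02 to 0.024, and 2 of 9 libraries correlated best with their own number). Such correlations cannot tell whether same-numbered cultures shared an origin, so whether the numbers pair the samples is not known. With a replicate block the counts were 614, 609 and 1, and Hadh kept its call in both comparisons with PBS. Of named genes not called against PBS, Acsl5 passed under 2 alternatives in EKO_exo and 5 in WT_exo, Acat1 under 3 and 6, Fabp5 under 3 in EKO_exo, and Ucp2 under 7 and Pnpla2 under 1 in WT_exo. At 304 to 429 counts per library, Hadhb had the widest interval of the 10 genes, -0.35 to 0.20 on the log2 scale in EKO_exo against PBS.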
